A study of Mus musculus with 2 samples.

Results

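Chchd10, Cgnl1, Slc28a2, Matk, Ppic and Bag2 are 6 genes whose transcripts were lower in mouse MLL-AF9 leukaemia cells with a guide RNA against the Jumonji domain of Jmjd1c, and that do not belong to the granule proteins of promyelocytes. They were 6 of the 27998 genes in the count tables. They were listed because of their lower level in the Jumonji library, so the difference between the libraries is given below as a description. The cells carried the MLL-AF9 fusion, which drives acute myeloid leukaemia, and Cas9, a nuclease steered by a single guide RNA. In 1 culture the guide targeted Jmjd1c, a gene of the Jumonji histone demethylase family, within its Jumonji domain. In the control culture the guide matched luciferase of the sea pansy Renilla, which mice lack. Both cultures grew in RPMI medium with 10% serum and interleukin-3 at 10 ng/ml. The labels describe the source as primary mouse leukaemia. Strain, age, guide sequence, editing efficiency and whether a culture was a clone or a pool were not found in those labels.

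Each condition was 1 single-cell library, called the Jumonji and the Renilla library here, so no difference has a replicate check and the conditions were compared without a test, since cells of 1 culture are not replicates. The tables hold counts of unique molecular identifiers (UMIs), tags that mark single RNA molecules at their 3′ end. After barcodes above 10% mitochondrial UMIs were left out, 575 Jumonji cells with 12809661 UMIs (median 22123 per cell) and 608 Renilla cells with 14418743 UMIs (median 23528) were kept, and no barcode was shared between the libraries. Levels are given as CPM, UMIs of a gene per 1000000 UMIs of its library, with exact 95% Poisson intervals that cover counting error only. The leukaemia identity genes Ptprc, Itgam, Kit, Cd34, Hoxa9 and Meis1 were all detected in both libraries. They stood at 11.3 to 586 CPM in the Jumonji library and 12.2 to 333 CPM in the Renilla library. Their levels were not alike, since 3 of them lay 1.5-fold or more above their Renilla level and 0 as far below it. The log2 ratios (Jumonji over Renilla) of these 3 were 1.40 for Itgam, 0.81 for Cd34 and 0.72 for Ptprc. Those of Kit, Hoxa9 and Meis1 were -0.11, -0.26 and -0.04. The T and B cell genes Cd3e, Cd3g and Ms4a1 had 0 UMIs in both. Summed over marker lists, 5 promyelocyte genes stood at 1808 CPM in the Jumonji library and 5221 CPM in the Renilla library, 8 neutrophil genes at 917 and 147 CPM, and 8 monocyte and macrophage genes at 1173 and 641 CPM. Of those measured, 0 of 5 promyelocyte, 5 of 6 neutrophil and 6 of 8 monocyte genes lay 1.5-fold or more above their Renilla level. In the same order, 5, 1 and 1 of them lay as far below it. Over the 9922 genes that reached 50 UMIs, 11% lay as far above and 9.04% as far below. The 8 eosinophil genes summed to 82.5 CPM in the Jumonji and 35.4 CPM in the Renilla library, with 5 of 5 measured higher by 1.5-fold. Of 3 measured mast cell and basophil genes, 0 were higher and 2 lower by 1.5-fold. Ltf and Retnlg were the neutrophil markers at 0 in both libraries. The part of this shift in the levels below was not tested beyond the values by cluster and by Mpo.

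The 6 genes have unlike jobs. Chchd10 encodes a small protein of the mitochondrial intermembrane space that is linked to the folds of the inner membrane, and mutations of its human counterpart cause motor neuron disease and myopathy. Bag2 is a co-chaperone of the HSP70 chaperones and an inhibitor of the ubiquitin ligase CHIP. Ppic (cyclophilin C) is a peptidyl-prolyl isomerase, an enzyme that helps proteins to fold. Matk is a kinase of blood and brain cells that, like its relative Csk, phosphorylates the inhibitory tail tyrosine of Src family kinases. Slc28a2 is a sodium-driven carrier that brings purine nucleosides and uridine into cells, and Cgnl1 (paracingulin) is a protein of epithelial cell junctions that binds regulators of small GTPases. Mpo, the granule enzyme myeloperoxidase, was used as the measure of the promyelocyte programme within each library.

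Promoter windows are shown first because the genes were grouped by their level alone, and their start sites differ in kind. RefSeq on build GRCm38.p6 gave windows, 250 bases before to 50 after a start site, for 5 of the 6 genes, all but Ppic. The Bag2 window (chr1:33757701-33758000, minus strand) held 35 CpG dinucleotides and that of Cgnl1 held 30, against a median of 7 over 32851 windows (quartiles 3 and 20). The first Matk window held 12. The Chchd10 window (chr10:75932880-75933179, plus strand) held 5 and that of Slc28a2 held 1, near the 2 of the Mpo window (chr11:87793534-87793833, plus strand). Chchd10 is printed as the best counted of the 6 genes, Bag2 as the one with most CpG dinucleotides, and Mpo as the granule gene beside them, with motif matches in capitals.
Chchd10: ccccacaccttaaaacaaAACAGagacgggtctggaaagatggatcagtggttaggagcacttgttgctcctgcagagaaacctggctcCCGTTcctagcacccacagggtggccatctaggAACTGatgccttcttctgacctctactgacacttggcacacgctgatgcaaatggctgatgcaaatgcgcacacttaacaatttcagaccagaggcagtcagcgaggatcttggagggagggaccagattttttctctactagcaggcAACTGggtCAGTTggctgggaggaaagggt
Bag2: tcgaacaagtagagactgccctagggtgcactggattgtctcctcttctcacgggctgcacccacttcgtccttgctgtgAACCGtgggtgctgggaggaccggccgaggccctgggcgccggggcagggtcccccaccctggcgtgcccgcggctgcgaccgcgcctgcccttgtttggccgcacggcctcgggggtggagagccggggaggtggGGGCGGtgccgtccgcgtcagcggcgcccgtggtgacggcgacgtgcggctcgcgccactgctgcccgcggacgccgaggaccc
Mpo: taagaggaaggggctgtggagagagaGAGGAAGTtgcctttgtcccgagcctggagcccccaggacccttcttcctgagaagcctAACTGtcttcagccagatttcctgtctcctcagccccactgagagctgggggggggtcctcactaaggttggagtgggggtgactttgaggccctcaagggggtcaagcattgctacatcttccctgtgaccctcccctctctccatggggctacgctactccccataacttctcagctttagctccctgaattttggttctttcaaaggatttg

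The motifs searched on both strands were TTNNGCAA (C/EBP), GAGGAAGT (PU.1), TGTGGT (RUNX), AACNG (MYB), TGATTTAT (HOXA9 with MEIS1), GGGCGG (SP/KLF) and CACGTG (E-box). All windows of this length held them at 10.8%, 3.20%, 16.8%, 80.3%, 0.977%, 35.7% and 7.15%. GAGGAAGT was found in the Mpo window and in none of the 6 windows of the 5 genes. AACNG, which most windows hold, was found in a window of each of the 5 genes and of Mpo, 5 times in Chchd10. GGGCGG was found in Cgnl1 and Bag2, and the reverse of TGTGGT in Slc28a2. No match of 1 motif overlapped a match of another. These are matches of letters and say nothing of whether a factor binds.

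All 6 genes were lower in the Jumonji library by at least 3.03-fold. Among the 8959 genes that reached 100 UMIs, 1.48% were at least 2-fold lower and 4.65% at least 2-fold higher, but since the genes were chosen on this contrast their 6 of 6 is no result about them. Ordered by the upper bound of the log2 ratio (Jumonji over Renilla), they took ranks 3, 5, 6, 8, 10 and 11 among the lower genes. The other ranks up to 11 were held by Mpo, Ctsg and Ms4a3 of the primary granule list, by the neutrophil granule gene Camp and by Gm43194, at rank 7 with a log2 ratio of -2.28, which is not among the 6. Bag2, the last of the 6, had an upper bound of -1.34. The next 2 genes in that order, AY036118 at -1.51 and Heg1 at -1.60, had upper bounds of -1.30 each and are not among the 6. The median log2 ratio of the 6 was -1.87, beside -0.06 over the 8959 genes.

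**Figure D1:**
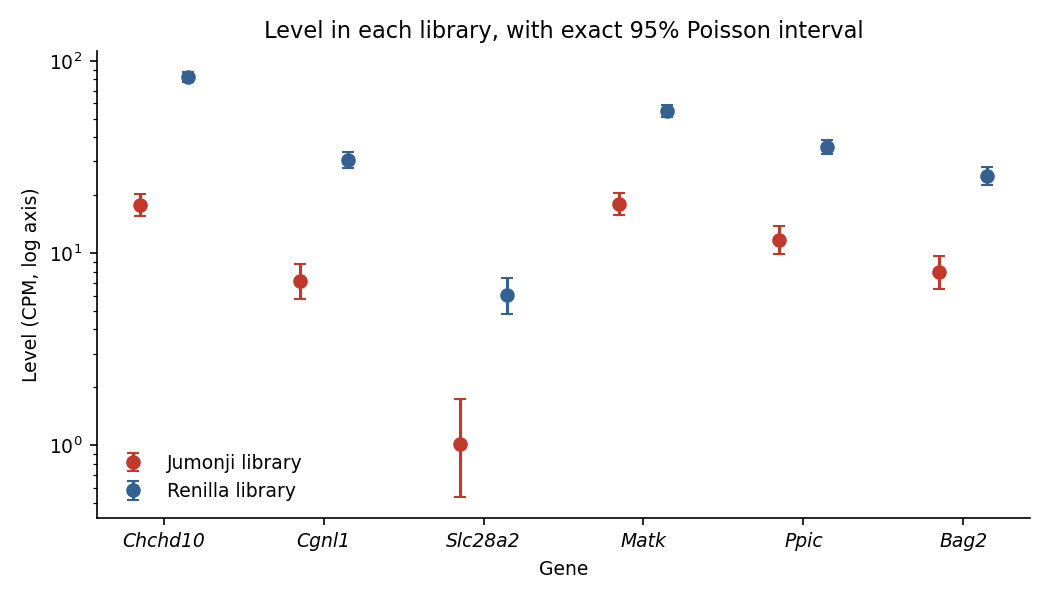
Level of each gene (CPM, log axis) in the Jumonji library (red) and the Renilla library (blue). Points are values of 1 library each and bars are exact 95% Poisson intervals, which do not overlap for any gene. Slc28a2 is the gene with the widest interval, from 13 UMIs in the Jumonji library.

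Chchd10 (ENSMUSG00000049422, chromosome 10, 75933130 to 75937747, plus strand, mm10) stood at 17.7 CPM (15.5 to 20.2) in the Jumonji library and 82.6 CPM (78.0 to 87.4) in the Renilla library. This was 227 against 1191 UMIs, 4.66-fold lower (4.04 to 5.40), the best counted of the 6 differences. In the Jumonji library 103 cells had 1 UMI of it and 3 cells had 5 or more, while in the Renilla library 168 cells had 1 UMI and 63 cells had 5 or more. A single Renilla cell reached 14 UMIs, against 7 in the Jumonji cell with the most. The genes Mmp11 and Gm867 overlap Chchd10 on the other strand and had 0 UMIs in the Jumonji and 1 UMI each in the Renilla library.

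Matk (ENSMUSG00000004933, chromosome 10, 81252935 to 81263365, plus strand) stood at 18.0 CPM (15.8 to 20.5) in the Jumonji library and 54.6 CPM (50.8 to 58.5) in the Renilla library, 3.03-fold lower (2.61 to 3.52). Bag2 (ENSMUSG00000042215, chromosome 1, 33745484 to 33757795, minus strand) stood at 7.96 CPM (6.49 to 9.67) and 25.2 CPM (22.7 to 27.9) in the Jumonji and Renilla libraries, 3.16-fold lower (2.53 to 3.98). Ppic (ENSMUSG00000024538, chromosome 18) stood at 11.7 CPM (9.91 to 13.7) and 35.6 CPM (32.6 to 38.9) in the Jumonji and Renilla libraries, 3.04-fold lower (2.53 to 3.68). The intervals of these 3 folds overlap, so their order cannot be read. Ppic was the most unevenly spread of the 6 in the Renilla library, where single cells held up to 18 UMIs and the variance over the mean in thinned cells was 1.54, beside 1.02 to 1.39 for the other 5.

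Cgnl1 (ENSMUSG00000032232, chromosome 9, 71626509 to 71771602, minus strand) stood at 7.18 CPM (5.79 to 8.81) in the Jumonji library and 30.4 CPM (27.7 to 33.4) in the Renilla library, 4.24-fold lower (3.38 to 5.37). Slc28a2 (ENSMUSG00000027219, chromosome 2, 122426477 to 122461137, plus strand) was scarce in both, at 1.01 CPM (0.540 to 1.74) from 13 UMIs in the Jumonji library and 6.03 CPM (4.83 to 7.44) from 87 UMIs in the Renilla library. Its ratio of 5.95-fold lower (3.30 to 11.6) is the least certain. Of the 98-base stretches in the last 600 bases of Slc28a2 transcripts, 245 of 510 occur unchanged in the neighbouring copy Gm14085, so reads may be split or lost between them. Gm14085 had 0 UMIs in the Jumonji and 2 in the Renilla library. None of the other 5 genes shared such a stretch with another gene.

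The lower levels appeared in how many cells had a UMI and, for the better counted genes, in the number per cell. Both measures follow the mean level where counts are this low, so they are not separate results. To compare at equal depth, 10000 UMIs were drawn at random from every cell, which left 520 Jumonji and 579 Renilla cells and left out 55 and 29 shallower ones. Chchd10 then had a UMI in 12.5% of Jumonji cells (interval 9.78% to 15.7%) and 50.8% of Renilla cells (interval 46.6% to 54.9%), or 26.1% and 74.5% unthinned. Its mean in cells with a UMI was 1.23 thinned UMIs in the Jumonji and 1.63 in the Renilla library. Poisson counts with the same mean per cell would give shares of 14.3% in the Jumonji and 56.3% in the Renilla library. Matk was found in 15.96% of Jumonji cells (interval 12.9% to 19.4%) and 38.5% of Renilla cells (interval 34.5% to 42.6%), or 26.3% and 64.5% unthinned. No cell type that should lack these genes is known in these cultures, so the level that free RNA in the droplets gives was not measured.

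The other 4 genes were found in fewer cells. Thinned shares were 6.35% of Jumonji and 25.0% of Renilla cells for Cgnl1, 9.42% and 25.2% for Ppic, 6.92% and 19.3% for Bag2, and 0.769% (4 cells) and 4.84% (28 cells) for Slc28a2. Unthinned, the Jumonji and Renilla shares were 12.3% and 44.4% for Cgnl1, 14.3% and 37.7% for Ppic, 12.2% and 41.6% for Bag2, and 2.26% and 12.5% for Slc28a2. For each of the 6 genes the exact intervals of the thinned shares did not overlap between the libraries. Counting how many of the 6 genes had a UMI in a thinned cell, 59.2% of Jumonji and 15.2% of Renilla cells had none. No Jumonji cell had more than 3 of them, whereas 22 Renilla cells had 4 and 4 Renilla cells had 5.

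**Figure D2:**
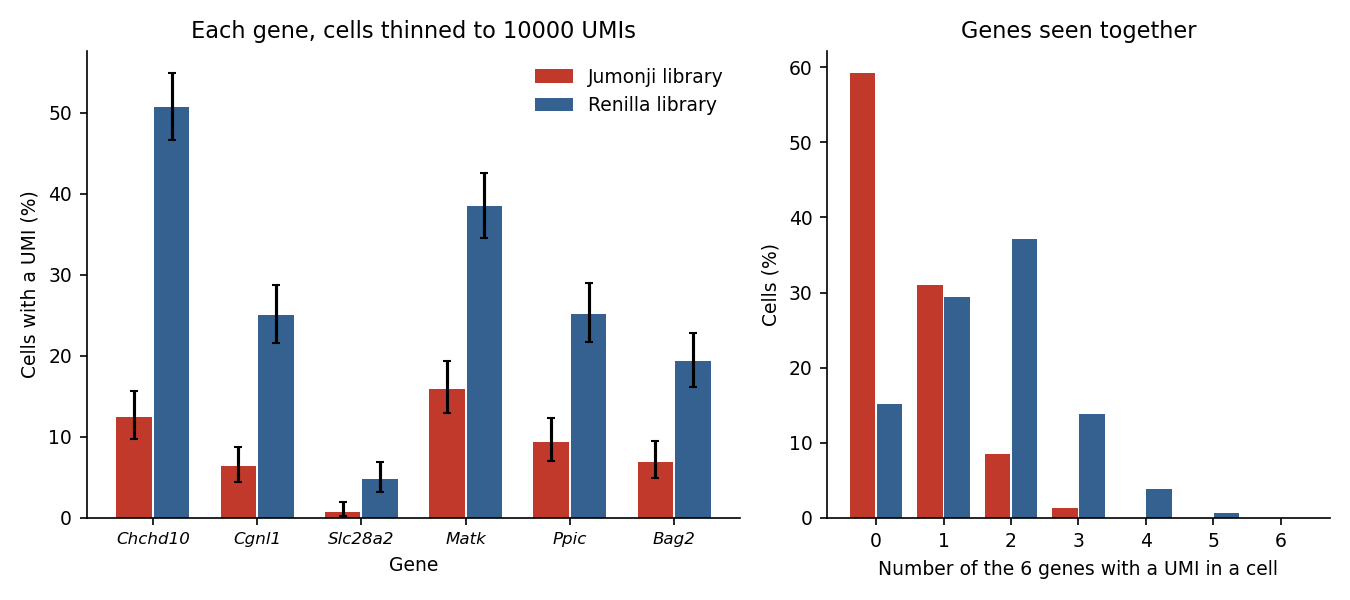
Left, share of cells (%) with at least 1 UMI of each gene after thinning every cell to 10000 UMIs, Jumonji (red) and Renilla (blue), with exact 95% Clopper-Pearson intervals. Right, share of cells (%) by how many of the 6 genes had a UMI, where 59.2% of Jumonji and 15.2% of Renilla cells had 0.

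Within each library the 6 genes followed Mpo weakly or not at all. Of the 6 genes, Matk had the highest r with it in the Renilla library. Across 579 thinned Renilla cells the Pearson r of Matk with Mpo, on log2(UMIs + 1), was 0.22 (Spearman rho 0.22). Across 520 thinned Jumonji cells r was 0.11 (rho 0.09). On another random draw r was 0.17 in the Renilla and 0.18 in the Jumonji library. Thinned to 15000 UMIs it was 0.25 and 0.16, and with unthinned counts scaled to 10000 per cell 0.30 and 0.15, in the same order. The gap thus changed with the draw and the depth, so no difference between the libraries can be read. Over the 8350 genes measured in the Renilla cells r with Mpo had a median of 0.01 and a 95th percentile of 0.12, and 54 genes exceeded 0.2. The granule genes Ctsg, Prtn3, Elane and Ms4a3 had r with Mpo of 0.55, 0.45, 0.29 and 0.23 in the Renilla library. In the Jumonji library they had 0.49, 0.33, 0.38 and 0.30. Ctsg had the highest r of all measured genes in both libraries, and the Renilla value of Matk lay close to that of Ms4a3. Cells of a library share its preparation and its culture, so these r are descriptions without a test.

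Chchd10 had r with Mpo of 0.04 in the Jumonji library and 0.16 in the Renilla library. Its Jumonji value was 0.16 on another random draw and 0.16 with unthinned counts scaled to 10000 per cell, so the thinned value is imprecise at this depth and no difference between the libraries can be read. Cgnl1 had r of -0.07 and 0.14, Bag2 0.05 and 0.07, Ppic 0.04 and -0.06, and Slc28a2 0.04 and 0.03, in the Jumonji and Renilla libraries. In counts this sparse such weak values are no finding. The Renilla values of Chchd10 and Cgnl1 lay above the 95th percentile over all genes. On another random draw they were 0.13 and 0.04. Thinned to 15000 UMIs they were 0.06 and 0.08, and with unthinned counts scaled to 10000 per cell 0.13 and 0.11. Matk also depended on the partner, since its Renilla r with Ctsg, Elane, Prtn3 and Ms4a3 summed was 0.06, with single values of 0.17 for Ctsg and -0.04 for Ms4a3.

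Splitting cells by Mpo gives the same picture in levels. In the Renilla library, 508 thinned cells with a Mpo UMI held Matk at 59.1 CPM (52.6 to 66.1), against 25.4 CPM (15.03 to 40.1) in 71 cells without one, a ratio of 2.33 (1.45 to 3.98). Across Renilla cells with 0, 1 to 3, 4 to 9 and 10 or more Mpo UMIs, Matk stood at 25.4, 38.3, 65.8 and 80.5 CPM. Matk was thus higher in each successive group. Chchd10 in the same Renilla groups stood at 50.7, 83.0, 80.2 and 106 CPM, and Renilla cells with a Mpo UMI had 1.72 times (1.22 to 2.49) the level of those without. Cgnl1 was 2.25 times (1.19 to 4.78) as high in Renilla cells with a Mpo UMI, while the intervals of this ratio for Ppic, Bag2 and Slc28a2 included 1. These ratios rest on the same random draw, and their intervals leave out the error of drawing. The Renilla r of Cgnl1 with Mpo was 0.04 on another draw and 0.11 with unthinned counts scaled to 10000 per cell, so its ratio is uncertain.

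In the Jumonji library 83 thinned cells had a Mpo UMI and 437 had none. Matk stood at 25.3 CPM (15.7 to 38.7) in Jumonji cells with a Mpo UMI and 16.5 CPM (12.9 to 20.7) in those without, and Chchd10 at 22.9 CPM (13.8 to 35.7) and 14.0 CPM (10.7 to 17.9). For all 6 genes the counting interval of this ratio included 1 in the Jumonji library. Cgnl1 had 2 UMIs in the 83 Jumonji cells with Mpo and 36 in the 437 without, a ratio of 0.293 (0.034 to 1.14). Before thinning, the Jumonji cells with Mpo had a median of 26870 UMIs and those without 22262.

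The libraries were also compared within cells with and without a Mpo UMI. Cells with one were not at equal Mpo, since 56 of 83 Jumonji but 188 of 508 Renilla cells had 1 to 3 UMIs of it. Among cells without a Mpo UMI, the log2 ratio (Jumonji over Renilla) was -1.86 (-2.48 to -1.22) for Chchd10, -1.69 (-2.44 to -0.89) for Ppic and -1.47 (-2.43 to -0.45) for Bag2. In the same cells it was -0.62 (-1.38 to 0.21) for Matk and -0.77 (-1.81 to 0.40) for Cgnl1, whose intervals included 0. Among cells with a Mpo UMI it was -1.93 (-2.68 to -1.27) for Chchd10, -1.22 (-1.94 to -0.58) for Matk, -1.13 (-2.02 to -0.34) for Ppic, -1.04 (-2.14 to -0.12) for Bag2 and -3.72 (-6.78 to -1.84) for Cgnl1. Slc28a2 had 3 UMIs in each library among cells without Mpo, too few to place it. The intervals of Chchd10 and Ppic lay below 0 in both kinds of cell, and so did those of Bag2. Whether the genes, or the 2 kinds of cell, differ from each other in this ratio was not tested.

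**Figure D3:**
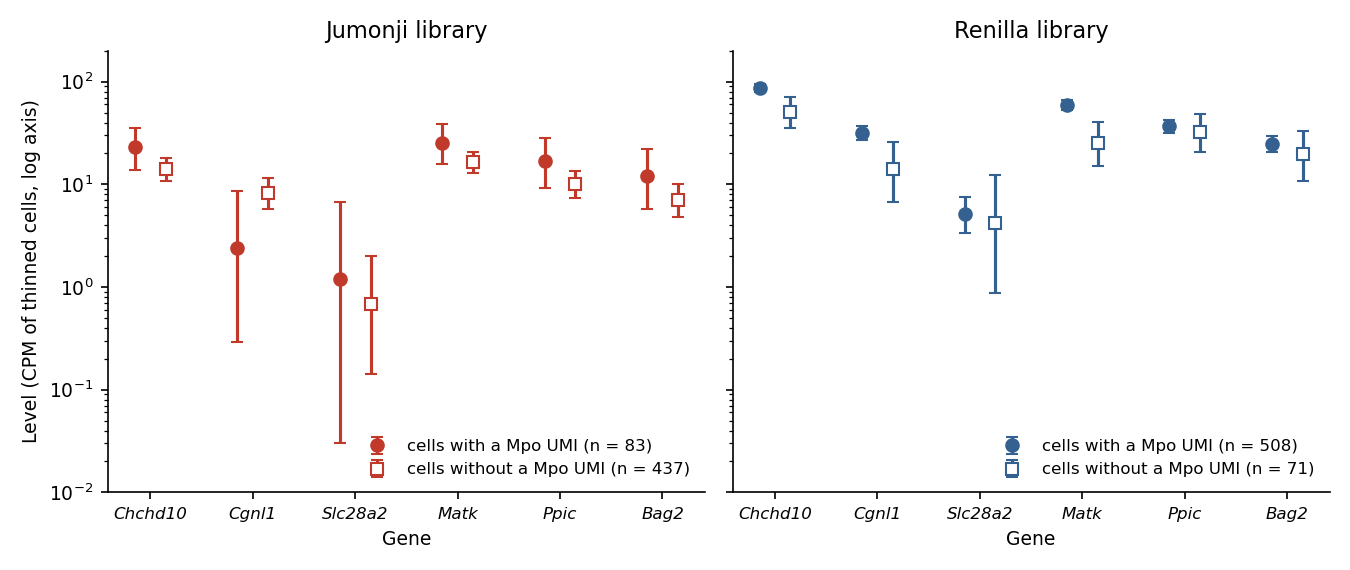
Level of each gene (CPM of cells thinned to 10000 UMIs, log axis) in cells with a Mpo UMI (filled circles) and without (open squares), Jumonji library left (83 and 437 cells) and Renilla library right (508 and 71 cells). Bars are exact 95% Poisson intervals. In the Renilla library those of Chchd10, Cgnl1 and Matk do not overlap between the kinds of cell, and in the Jumonji library those of every gene do. Whether the libraries differ in this was not tested.

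Cells of both libraries were also clustered without the genes that differ 1.5-fold between the libraries, the cell cycle lists, mitochondrial and ribosomal protein genes, and the 6 genes themselves. The 7 clusters are referred to by number, since only cluster 6 had at least 3 markers of a listed type (Camp, Ngp, S100a9 and S100a8) among its 10 leading genes. Libraries filled them unequally. Cluster 3, led by Wfdc17 and Ctss, held 155 of 575 Jumonji and 17 of 608 Renilla cells, and clusters 2 and 4, led by cell cycle genes such as Ccne1 and Cenpf, held 17 and 9 Jumonji against 159 and 148 Renilla cells. Cluster 5, also led by mitosis genes such as Nusap1, held 138 Jumonji and 17 Renilla cells. A cluster mostly of 1 library may be that library and not a type of cell.

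Chchd10, Cgnl1, Matk, Slc28a2 and Bag2 were lower in the Jumonji library in each of the 7 clusters, and Ppic in 6. Ppic had a log2 ratio of 0.19 (-0.91 to 1.11) in cluster 4, which held 9 Jumonji cells, and -0.07 (-1.13 to 0.83) in cluster 2. The interval lay below 0 in 6 clusters for Chchd10, Cgnl1 and Matk, in 5 for Ppic and Bag2, and in 1 for Slc28a2. Averaged over clusters with equal weight the log2 ratio of Chchd10 was -1.50, against -2.22 over all cells. For Bag2 it was -1.06, against -1.66 over all cells. Bag2 had 0 UMIs in the 9 Jumonji cells of cluster 4. The floor of 3 counts set its log2 ratio there at -1.08, close to its average over clusters.

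In the Jumonji library Cgnl1 was higher inside the Ctss-led cluster 3 than outside it. It stood at 12.8 CPM (8.55 to 18.3) in cluster 3, against 5.98 CPM in the remaining Jumonji cells, a log2 ratio of 1.10 (0.41 to 1.75). Bag2 went the other way, at 2.20 CPM inside this cluster, against 9.20 CPM in the remaining Jumonji cells, a log2 ratio of -2.06 (-3.72 to -0.79). Chchd10 at -0.93 (-1.62 to -0.31), Ppic at -1.18 (-2.13 to -0.36) and Matk at -0.76 (-1.41 to -0.17) were also lower in cluster 3 of the Jumonji library, as was Mpo at -2.60 (-3.18 to -2.08). Slc28a2, with 2 UMIs in cluster 3, stood at -0.24 (-3.46 to 1.95), which decides neither direction. In the 17 Renilla cells of this cluster Chchd10 was lower than in the remaining Renilla cells, at 15.1 against 84.2 CPM, and Bag2 had 1 UMI. Cgnl1 in the Renilla library did not differ beyond counting error, at 27.2 against 30.5 CPM (log2 ratio -0.17, -1.30 to 0.77).

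At equal depth the same held for shares of cells. Cgnl1 had a UMI in 11.2% (6.10% to 18.4%) of 116 thinned Jumonji cells inside cluster 3 and 4.95% (3.05% to 7.54%) of 404 outside. Bag2 had one in 2.59% (0.537% to 7.37%) inside and 8.17% (5.69% to 11.3%) outside, and Chchd10 in 8.62% (4.21% to 15.3%) and 13.6% (10.4% to 17.3%). These intervals overlap for all 3 genes. The Jumonji cells inside were shallower before thinning, with a median of 15165 UMIs against 25225 outside. Without cluster 3 all 6 genes were still lower in the Jumonji library, and the log2 ratios (Jumonji over Renilla) were -2.12 for Chchd10, -2.35 for Cgnl1, -2.55 for Slc28a2, -1.50 for Matk, -1.47 for Ppic and -1.48 for Bag2.

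**Figure D4:**
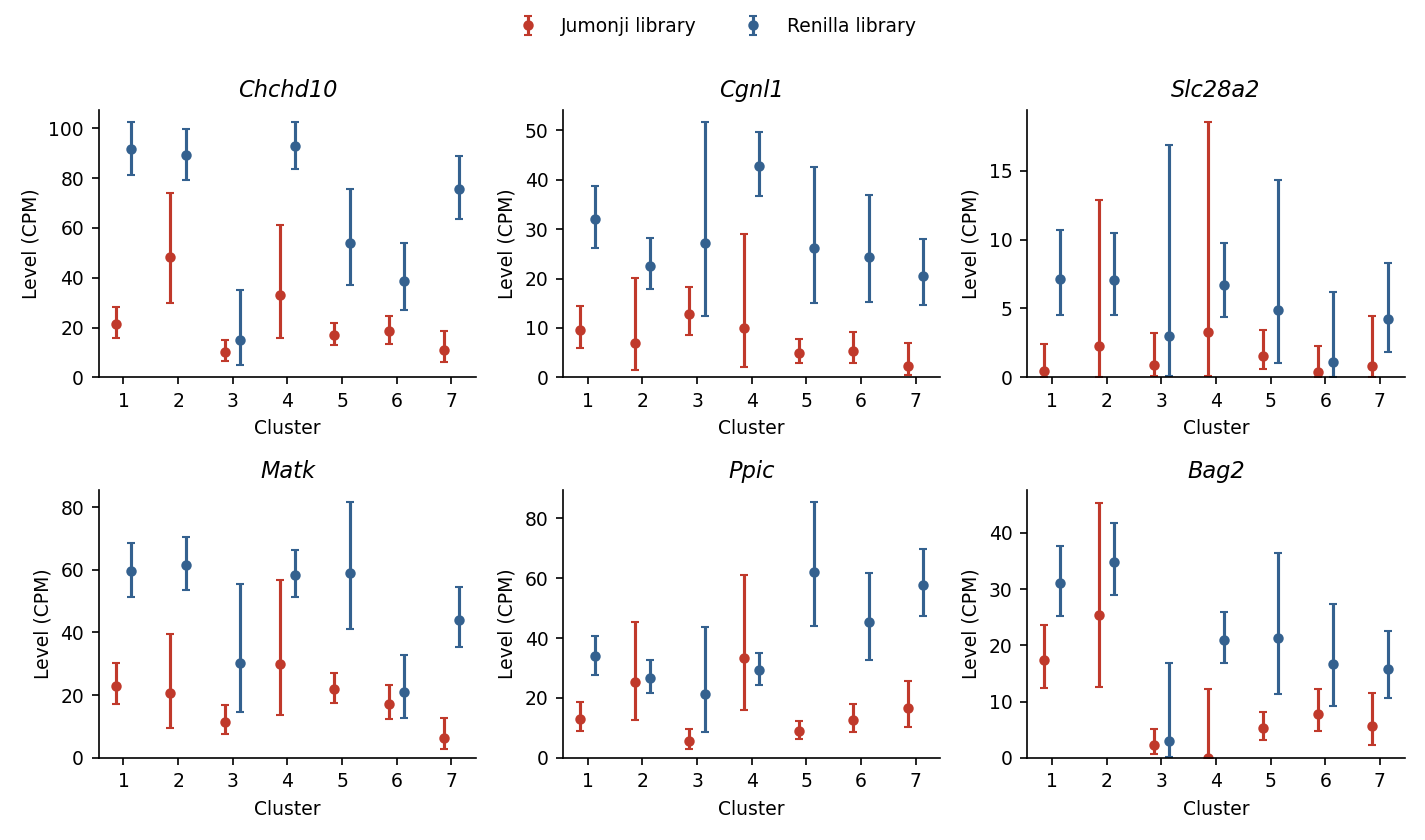
Level (CPM) of each gene in the 7 clusters, Jumonji library (red) left of the Renilla library (blue), with exact 95% Poisson intervals. In the Renilla library Chchd10 lies at 91.6, 89.2 and 92.8 CPM in clusters 1, 2 and 4 and at 15.1 CPM in cluster 3, and in the Jumonji library Cgnl1 is highest in cluster 3.

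Whether the 6 genes rise and fall together from cell to cell could not be read at this depth. Over their 15 pairs, r on thinned counts lay between -0.03 and 0.06 in the Jumonji library (median 0.02) and between -0.11 and 0.09 in the Renilla library (median 0.03). At most 10 Jumonji and 116 Renilla cells held both genes of a pair, and such values in sparse counts decide neither way. Chchd10 and Matk were the only genes with a UMI in at least 10% of thinned cells of both libraries, so the genes most like them were sought among 4489 others by the lower of the 2 libraries' r. For Chchd10 these were Huwe1, mt-Nd1, Set, Nme1 and Llph, with lower r of 0.13 to 0.14. For Matk they were Ctsg, Gnl3, Set, Hmgb3 and mt-Nd1, with lower r of 0.12 to 0.15. Values this weak in sparse counts single out no partner.

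Genes of related function gave a mixed background to the 6. Over the 9922 genes that reached 50 UMIs, 9.04% lay 1.5-fold or more below their Renilla level and 11% as far above it, with a median log2 ratio of -0.06. Around Chchd10, 18 genes of the cristae-organising MICOS complex, its partners and the import machinery were measured. Of these 5 were at least 1.5-fold lower and none higher, with a median of -0.29. Chchd6, a MICOS subunit, stood at 14.2 CPM in the Jumonji and 27.9 CPM in the Renilla library, a log2 ratio of -0.97 (-1.23 to -0.72). Chchd4 at -0.66 (-0.75 to -0.57) and Gfer at -0.65 (-0.79 to -0.52), which import and oxidise proteins of this family, were lower too, with Dnajc11 at -0.65 and C1qbp at -0.61. The paralogue Chchd2 differed far less, at 858 CPM in the Jumonji library and 1036 CPM in the Renilla library, a log2 ratio of -0.27 (-0.31 to -0.24).

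Among the Src family kinases, whose tail Matk can phosphorylate, and their regulators, some went the other way. Lyn, a Src family kinase of myeloid cells, stood at 73.8 CPM in the Jumonji and 32.5 CPM in the Renilla library, a log2 ratio of 1.18 (1.02 to 1.35). Csk, the paralogue of Matk, was higher by less, at 0.42 (0.26 to 0.59). Of 13 measured genes of this list 3 were at least 1.5-fold higher, among them Lyn and the phosphatase Ptprc (CD45) at 0.72 (0.59 to 0.85), and 1 was lower, Lck at -0.67 (-1.38 to 0.01), whose interval includes 0. The list median was 0.17.

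Among 14 measured cyclophilins the median was -0.27, with 1 gene at least 1.5-fold higher and 1 lower. Ppib (cyclophilin B), which folds proteins in the endoplasmic reticulum, was higher, at 417 CPM in the Jumonji and 247 CPM in the Renilla library and a log2 ratio of 0.76 (0.70 to 0.82). Ppif (cyclophilin D), which sits in the mitochondrial matrix, was lower at -0.86 (-1.09 to -0.64). The 18 measured BAG proteins and HSP70 co-chaperones had a median of -0.18, with none higher and 1 lower by 1.5-fold, Hsph1 at -0.93 (-1.17 to -0.70), a nucleotide exchange factor of HSP70. Bag1, the paralogue set beside Bag2, was higher at 0.41 (0.34 to 0.48), so the 2 differed in direction.

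Among 16 measured genes of nucleoside transport and salvage the median was 0.08, with 3 higher and 1 lower by 1.5-fold. Nt5e (CD73), which makes adenosine outside the cell, stood at 57.9 CPM in the Jumonji library and 6.03 CPM in the Renilla library, a log2 ratio of 3.26 (2.94 to 3.60). Dck (deoxycytidine kinase) was higher at 0.88 (0.66 to 1.10) and Samhd1, which breaks down deoxynucleotides, at 0.75 (0.52 to 0.99), while the S phase enzyme Tk1 was lower at -0.97 (-1.11 to -0.83). Slc29a1, a facilitated nucleoside carrier, stood at 0.13, and the related carriers Slc28a1 and Slc28a3 had 0 and 2 UMIs in the Jumonji and 0 and 1 UMIs in the Renilla library. Of 18 genes of cell junctions and GTPase regulation listed around Cgnl1, 6 were below 50 UMIs, among them the paralogue Cgn, Ocln and Jam3 with 0 UMIs in both libraries. The 12 measured had a median of -0.05, with none higher and 3 lower by 1.5-fold. Among these were the junction proteins Ctnnd1 at -0.59 (-0.87 to -0.32) and Plekha7 at -0.59 (-1.17 to -0.03), the second from fewer than 100 UMIs in either library.

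**Figure D5:**
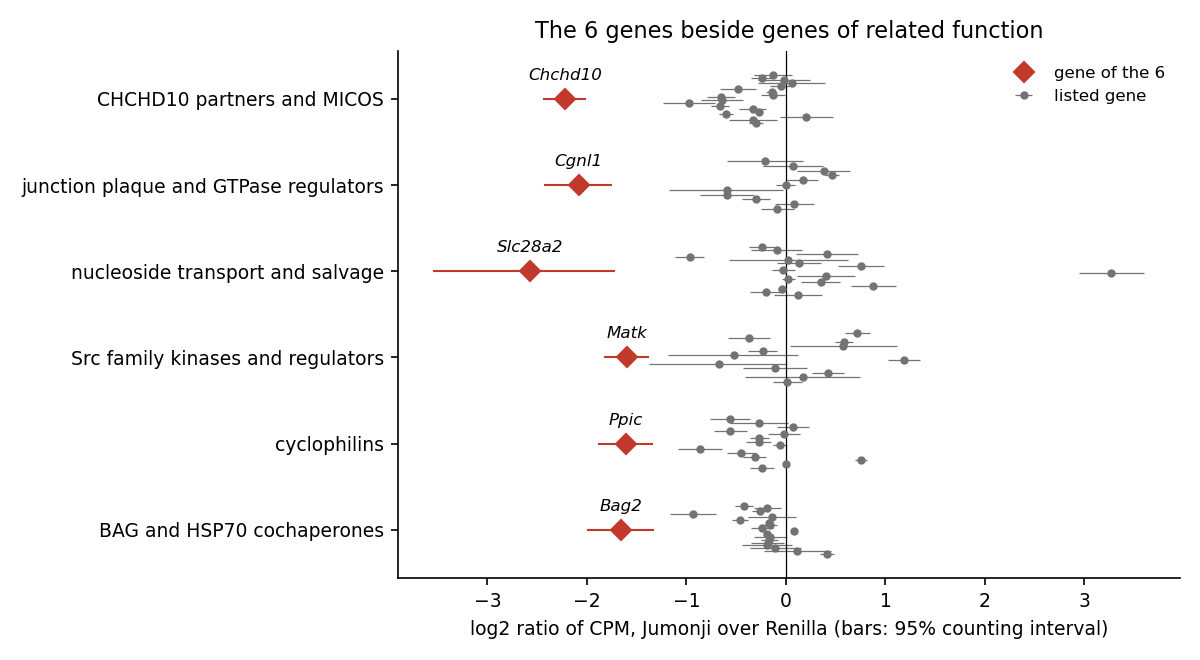
Log2 ratio of CPM (Jumonji over Renilla) of the 6 genes (red diamonds) and of the measured genes of related function (grey points, at least 50 UMIs, without 2 that are not reported here), with 95% counting intervals. Nt5e at 3.26 and Lyn at 1.18 lie farthest right among the genes drawn, and each of the 6 genes lies left of the measured genes of its list; the 6 were chosen for this ratio.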

How the data were processed

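RNA of single cells was captured on the Chromium 3′ system of 10x Genomics, per the labels' protocols. The submitters' processing notes name Cell Ranger 1.3.1 with build mm10. The deposited values are raw UMI counts per gene and barcode, 652 barcodes in the Jumonji and 651 in the Renilla library. Annotation release, cell calling rule and strand setting were not stated there. Kept barcodes had at least 500 genes and no more than 10% mitochondrial UMIs. Scrublet marked 5 Jumonji (0.870%) and 9 Renilla (1.48%) cells as doublets, which were kept. UMIs were summed per library. Ratios carry exact 95% intervals of a ratio of Poisson counts, with a floor of 3 counts per library or cluster where a count was 0. Shares carry exact Clopper-Pearson intervals. Clusters came from scanpy 1.11.5 and leidenalg 0.10.2 (2000 variable genes, 30 components, 15 neighbours, resolution 0.6). GENCODE M21, on mm10, gave coordinates for 99.0% of 27998 identifiers. Of identifiers sharing a symbol, the one M21 gives that name was used (Itgam).

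The members and gene lists were chosen with earlier results of these data known. Named beside the 6 genes were Mpo, listed genes at least 1.5-fold apart with at least 50 UMIs, nearest paralogues and the 5 most alike genes. Other genes were named after their values were seen, to give marker levels, cluster leaders, genes at 0 and the gene just outside the choice. Jmjd1c, the targeted gene, stood at 112 CPM in the Jumonji and 140 CPM in the Renilla library, and 3′ counts do not check editing. On counts simulated for Jumonji over Renilla (8951 genes), 200 of 200 genes lowered 3-fold passed the 2-fold size rule, as did 0 unchanged genes, and 95.6% of intervals held the true ratio. These were Poisson counts, the error that the intervals assume. They check the calculation only and hold no variation between cultures or cells. Some listed genes count in the summaries of their lists and are not reported here by name. The alternatives changed cell filters, depth, scaling, cell weights, count minimum and correlation measure.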

Additional observations from a re-analysis of the deposited data

How the results depend on the processing

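Each of the 6 genes kept a log2 ratio below 0 in all 10 alternatives run. The ranges were -2.46 to -1.50 for Chchd10, -2.35 to -0.77 for Cgnl1, -2.70 to -0.64 for Slc28a2, -1.74 to -0.62 for Matk, -1.70 to -1.33 for Ppic and -1.88 to -1.06 for Bag2. Chchd10 moved out of its counting interval to -2.46 as a mean of per-cell CPM and to -1.50 as a mean over clusters, and Bag2 to -1.06 as a mean over clusters. The following settings were chosen after seeing the data. In cells with 0 Mpo UMIs the values were -1.86 for Chchd10, -0.77 for Cgnl1 and -0.62 for Matk. As a mean over Mpo groups with at least 20 cells of each library they were -1.75 for Chchd10, -0.64 for Slc28a2, -0.86 for Matk, -1.33 for Ppic and -1.06 for Bag2, where the value of Slc28a2 rests on the floor of 3 counts. The cause of the other shifts was not tested.

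The count of genes at least 2-fold lower was 204 at a minimum of 50 UMIs and 83 at 200 UMIs, against 133 at 100, since fewer or more genes were tested. Shares of cells rise with depth by construction. In Jumonji cells they were 26.1% for Chchd10, 12.3% for Cgnl1, 2.26% for Slc28a2, 26.3% for Matk, 14.3% for Ppic and 12.2% for Bag2 unthinned, and 19.2% for Chchd10, 9.26% for Cgnl1, 13.0% for Ppic and 9.49% for Bag2 at 15000 UMIs. In Renilla cells they were 74.5%, 44.4%, 12.5%, 64.5%, 37.7% and 41.6% for Chchd10, Cgnl1, Slc28a2, Matk, Ppic and Bag2 unthinned, and 63.1%, 33.3%, 9.68%, 51.2%, 31.8% and 29.8% at 15000 UMIs.

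Correlations with Mpo moved by more than 0.1, or changed sign near 0, in 8 of 96 alternative values, and the cause was not tested. Chchd10 in the Jumonji library had r of 0.156 on another draw and 0.158 unthinned. Cgnl1 in the Renilla library had 0.035 on another draw, and Ppic there 0.0045. Slc28a2 in the Jumonji library had -0.031 at 15000 UMIs. With the other 4 granule genes summed, in the Renilla library, Slc28a2 had -0.037, Matk 0.057 and Ppic 0.116. The median of the Src family list was 0.42 at a minimum of 100 UMIs, and that of the cyclophilins -0.15 without the cluster with the highest Ctss level. No paired analysis was possible because each condition had 1 library and the labels give no replicate number.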

Other observations

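Barcodes left out for more than 10% mitochondrial UMIs were 77 in the Jumonji and 43 in the Renilla library. They entered no comparison above except the alternatives run on all deposited barcodes. In both libraries Matk was higher in them than among kept cells, at 45.0 CPM (27.1 to 70.3) against 18.0 CPM in the Jumonji library and 119 CPM (80.1 to 170) against 54.6 CPM in the Renilla library. Mpo was higher there as well, at 434 against 68.4 CPM in the Jumonji library and 4660 against 607 CPM in the Renilla library. Chchd10, Cgnl1, Ppic and Bag2 did not differ between left-out and kept barcodes beyond counting error in either library. Slc28a2 had 6 UMIs in the left-out Renilla barcodes, 23.8 CPM (8.72 to 51.7) against 6.03 CPM in kept cells. Between the libraries, the left-out barcodes gave log2 ratios (Jumonji over Renilla) of -2.06 (-3.72 to -0.61) for Chchd10, -1.40 (-2.31 to -0.52) for Matk and -1.52 (-3.10 to -0.06) for Cgnl1, from 6, 19 and 7 Jumonji UMIs. Slc28a2, from 1 Jumonji UMI, stood at -3.32 (-8.85 to -0.28). The intervals included 0 for Ppic at -1.23 (-3.22 to 0.65) and Bag2 at -1.32 (-4.91 to 1.80). These barcodes come from the same 2 libraries and are no replicate.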
